A study of Homo sapiens with 12 samples.

Results

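The comparison described here asked what MDA-MB-231 cells changed when glucose was taken away while glutamine stayed in the medium. MDA-MB-231 is an established human breast adenocarcinoma cell line. The glutamine-only medium had glutamine at 4 mM and no glucose, and the full medium had it at 4 mM beside 25 mM glucose. Cells stayed in their medium for 36 h, always with 3% serum. The 2 other media of the study, glucose-only (25 mM glucose, no glutamine) and deficient (neither nutrient), were treated alike. The glutamine-only and full media gave 6 of the 12 libraries, 3 per medium, named by replicate letters A, B and C. The test took in genes that reached 10 in 3 or more of the 12 columns, 9270 of the 63187 genes listed. The results hold for 1 cell line, and no label says that replicates A, B and C were grown apart, so the p-values measure the spread between libraries, which may be technical.

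Glucose is broken down by glycolysis to pyruvate, and part of it is turned into nucleotide sugars, from which the glycans of secreted and membrane proteins are built. Glutamine supplies nitrogen and, through glutamate, carbon to the tricarboxylic acid cycle. In the endoplasmic reticulum (ER) the glycans and the chaperones work together in protein folding. When folding fails, the sensors IRE1, PERK and ATF6 switch on the unfolded protein response, which raises chaperones and degradation factors. PERK also belongs to the integrated stress response, in which phosphorylated eIF2 slows protein synthesis and lets the transcription factor ATF4 raise genes of amino acid import and synthesis.

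The values are normalized counts, the reads of a gene after scaling each library by its size factor. The libraries held 875033 to 1473587 reads assigned to genes, 1020451 to 1186169 in the glutamine-only and 945287 to 1429807 in the full medium, and 1 read was worth 0.661 to 1.30. Markers of the line were present (VIM, CD44, FN1 and AXL, the lowest value of any library being 296), while of 5 epithelial markers EPCAM stayed at or under 15.04 and CDH1 at or under 0.917. The epithelial keratins were present, KRT8 at 59.0 to 168, KRT18 at 235 to 396 and KRT19 at 63.9 to 164. Luminal (4), fibroblast (6), blood (6) and adipocyte (3) markers were all under 10 in every library. Among the 4 endothelial markers 2 did so, and the highest, PECAM1, reached 19.7. Mitochondrial transcripts took 25.4 to 28.2% of the reads in glutamine-only libraries and 18.5 to 22.6% in full ones, and protein-coding genes 48.0 to 54.6% and 52.3 to 59.8%.

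Without glucose, cells with glutamine had high messages of the ER folding machinery and of the amino acid response, and low messages of cell division, histones and much of glycolysis. The limma test, at an adjusted p under 0.05 over all 9270 genes, called 2083 genes between the glutamine-only and the full medium, 22.5% of those tested. Of these, 1005 were higher (10.8%) and 1078 lower (11.6%) in the glutamine-only medium, and 671 differed by at least 2-fold, 325 of them higher and 346 lower. In 1651 genes (17.8%) all 3 glutamine-only libraries lay above all 3 full ones, and in 1946 genes (21%) all lay below. The median log2 change over all genes tested was -0.0078. This balance rests on the size factors of the table: with libraries set to equal totals the median moved to -0.12 and the called genes were 629 higher and 1360 lower. The changes below are log2 differences of normalized count + 1, glutamine-only minus full, with their standard error (SE), and "rose", "fell" or "called" means an adjusted p under 0.05 in the limma test.

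**Figure D1:**
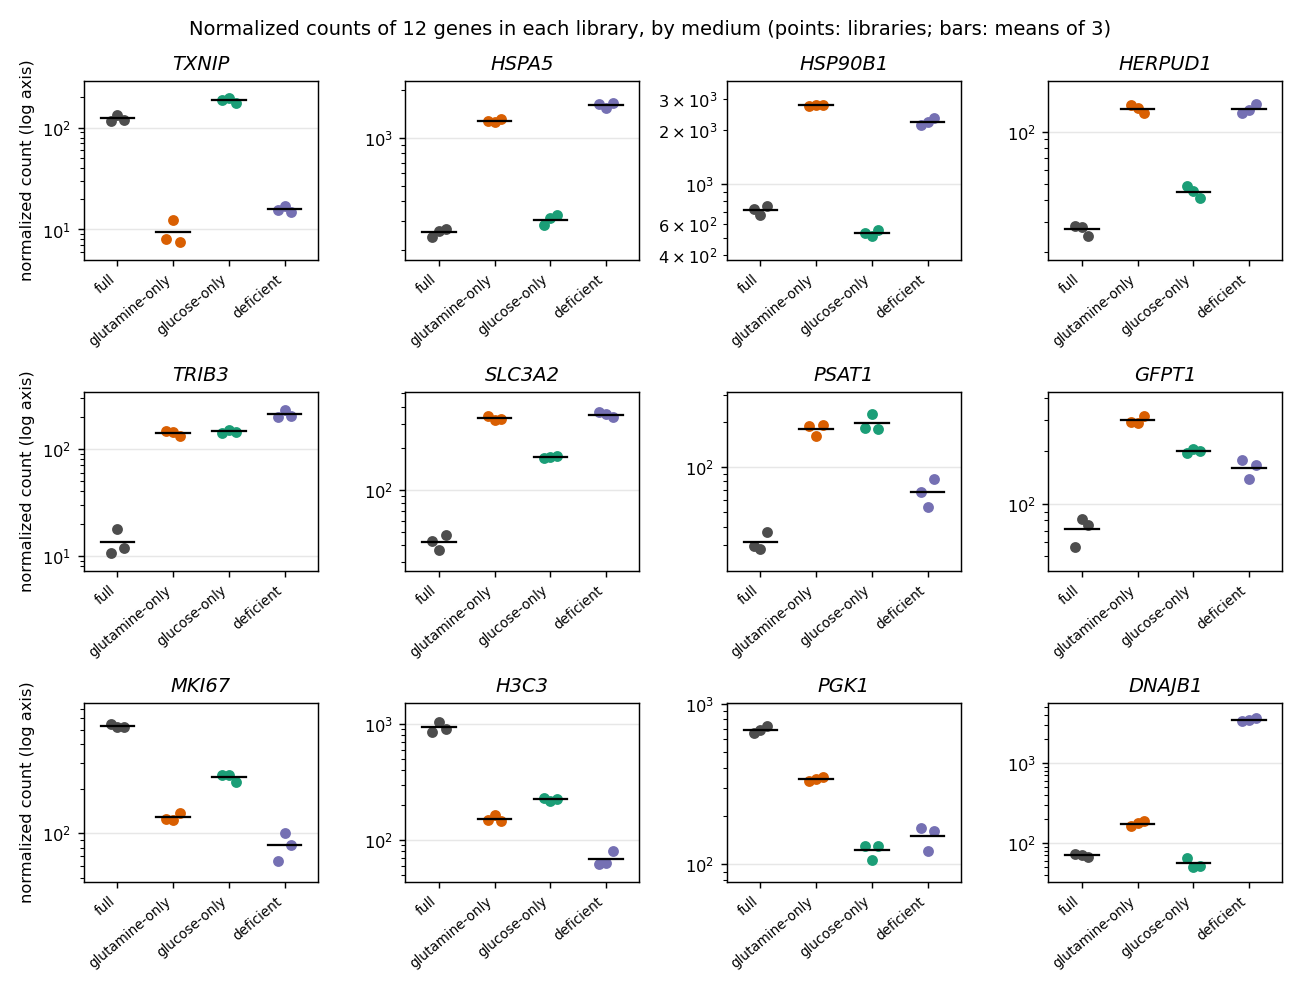
Normalized counts (log axis) of 12 genes in each of the 12 libraries, grouped by medium, with a bar at the mean of 3. The glutamine-only points of HSPA5, HSP90B1, HERPUD1, TRIB3, SLC3A2, PSAT1, GFPT1 and DNAJB1 all lie above the full points, and those of TXNIP, MKI67, H3C3 and PGK1 all lie below.

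Genes that read out glucose came first. TXNIP codes for an arrestin-family protein that holds back glucose uptake, and its transcription is driven by MondoA, a factor that responds to sugar phosphates. TXNIP (ENSG00000265972, chromosome 1, 145992435 to 145996579 in GRCh38.p14) stood at 116, 133 and 120.2 in full replicates A, B and C and at 8.12, 12.5 and 7.46 in the glutamine-only ones. The 2 groups were far apart, with the full values about an order of magnitude higher. It fell by 3.61 ± 0.17 (SE, adjusted p = 1.57e-15). In bulk RNA, fewer cells with a message and less of it per cell cannot be told apart, here and below. The change on glucose withdrawal without glutamine was -3.47 ± 0.17, and the difference of the 2 changes -0.14 ± 0.25 (adjusted p = 0.721) had an interval that covers 0.

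The other glucose-responsive genes had smaller changes. Of the 10 tested members of the list of MondoA and ChREBP factors and targets, 1 rose, 3 fell and 6 did not pass (median 0.16). Besides TXNIP, the transcription factor KLF10 was at 66.8, 67.7 and 72.5 in the full and 39.7, 50.1 and 46.6 in the glutamine-only medium, a fall of 0.60 ± 0.13. The arrestin-family gene ARRDC3 had a change of -0.55 ± 0.18 (adjusted p = 0.026), a call lost without glutamine-only A or C or full A or C (adjusted p 0.0642 to 0.108). RGS16 was the member that rose, from a mean of 1.36 to 4.68, near the lowest levels tested, and its call was lost without glutamine-only A, B or C or full A or B (adjusted p 0.0577 to 0.232). ARRDC4, a near relative of TXNIP, was too low to test, with 0 in each glutamine-only library and 2.64, 0 and 0 in the full ones. MLXIPL, the gene of ChREBP, also missed the filter, and its values were 20.7, 8.67 and 19.6 in the glutamine-only and 4.63, 4.70 and 1.83 in the full medium.

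Glucose uptake and glycolysis were next. Most glycolytic messages were lower without glucose, while the main glucose transporter did not pass the test. Of 19 glycolysis genes tested, 13 fell, none rose and 6 did not pass (median -0.53). From the hexose transport list 3 genes were tested, SLC2A1, SLC2A3 and their family member SLC2A13. SLC2A1, which codes for the widespread transporter GLUT1, was at 194, 179 and 202 in the full and 159, 184 and 199 in the glutamine-only medium, overlapping ranges with a change of -0.09 ± 0.12 (adjusted p = 0.651). The high-affinity transporter gene SLC2A3 was at 46.3, 45.1 and 48.6 and at 67.7, 63.6 and 86.7. Here all glutamine-only libraries were higher, and the change was 0.61 ± 0.14 (adjusted p = 0.00171).

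Among the called glycolysis genes the strongest falls were those of PGK1, TPI1 and PGAM1. PGK1, phosphoglycerate kinase (ENSG00000102144, chromosome X, 78104248 to 78129295), was at 655, 681 and 730.2 in the full medium and 330.1, 338 and 351 in the glutamine-only medium. The 3 lower values lay close together and far under the full ones, with a change of -1.02 ± 0.11 (adjusted p = 7.09e-08). TPI1, triose phosphate isomerase, went from 676, 687 and 677 to 308, 368 and 358, a change of -0.98 ± 0.10. PGAM1, phosphoglycerate mutase, changed by -0.92 ± 0.21, GAPDH by -0.64 ± 0.09, the enolase ENO1 by -0.60 ± 0.09 and the pyruvate kinase PKM by -0.48 ± 0.09.

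The hexokinases were split. HK1 was at 102, 111 and 108 in the full and 72.2, 69.3 and 58.7 in the glutamine-only medium, all lower, with a change of -0.68 ± 0.14 (adjusted p = 0.00053). HK2 was at 40.3, 42.3 and 48.6 and 40.6, 39.5 and 33.6, ranges that overlap, with a change of -0.20 ± 0.17 (adjusted p = 0.438). LDHB, a lactate dehydrogenase subunit, gave -0.16 ± 0.13 and the phosphofructokinase subunit PFKM 0.36 ± 0.18, and neither passed. LDHA was listed at 0 in all glutamine-only libraries and in full replicates A and B, and at 1.83 in full replicate C. Values at or near 0 in all libraries, here and for PCK2 below, may come from the counting, which was not tested, and are not read as expression. Without full replicate B the count of glycolysis genes that fell was 8, with none higher and a median of -0.44.

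**Figure D2:**
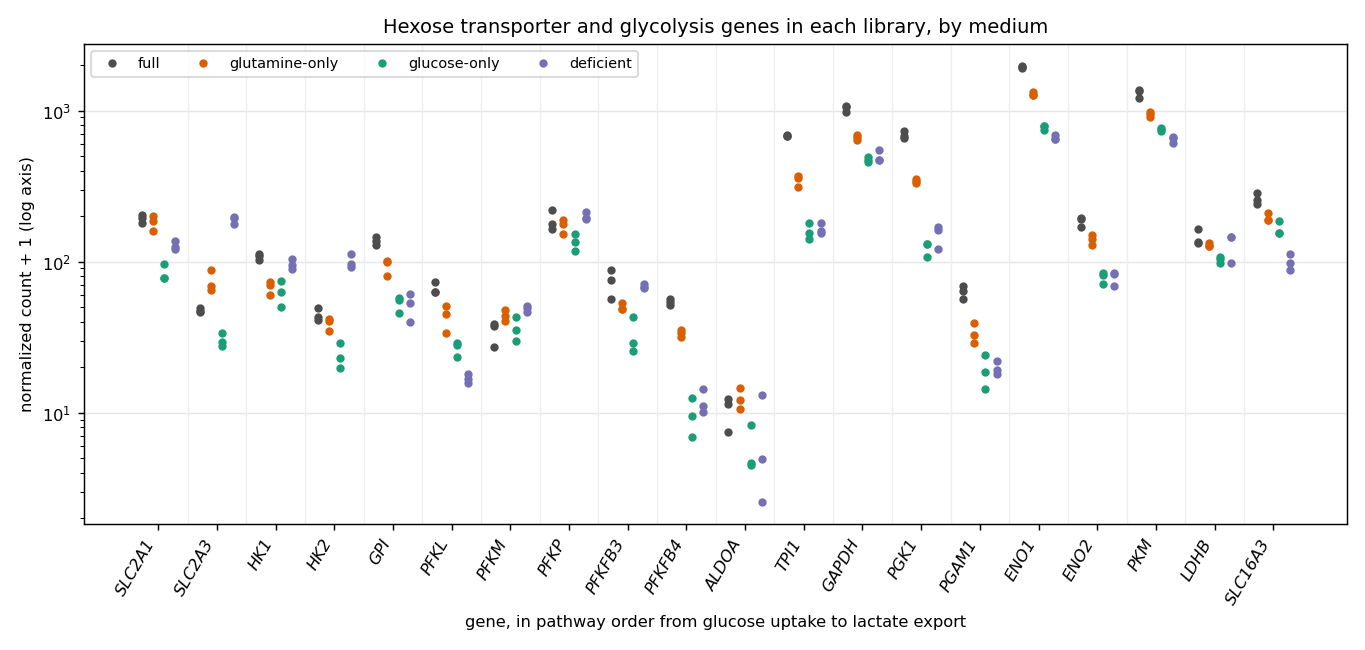
Normalized count + 1 (log axis) of hexose transporter and glycolysis genes, in pathway order, with 1 point per library and 1 colour per medium. For TPI1, GAPDH, PGK1, PGAM1, ENO1 and PKM the glutamine-only points lie below the full points and above the glucose-only points.

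The glycolysis genes were not at their lowest in the medium without glucose. Set against the glucose-only medium, 1234 genes (13.3%) were called, 766 higher (8.26%) and 468 lower (5.05%) in the glutamine-only medium, and 907 higher and 245 lower under equal totals. Of the 19 glycolysis genes 13 were higher in the glutamine-only than in the glucose-only medium and none was lower (median 0.67). PGK1 had a mean of 122 in the glucose-only and 150.0 in the deficient medium, so that its order was full, glutamine-only, deficient, glucose-only. The difference of the last pair was 0.29 ± 0.11 (adjusted p = 0.0427). PFKFB4, which makes a phosphofructokinase activator, had means of 53.2 in the full, 32.6 in the glutamine-only, 8.61 in the glucose-only and 10.8 in the deficient medium. Its step from full to glutamine-only was -0.69 ± 0.25 (adjusted p = 0.0469), a call lost without glutamine-only A, B or C or full A, B or C (adjusted p 0.0843 to 0.136).

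Past pyruvate the called genes were mostly lower. Of 17 genes of pyruvate entry and phosphoenolpyruvate making, 2 rose and 5 fell (median -0.28). The count that fell was 2 without glutamine-only replicate C and 3 without full replicate A or with DESeq2. DLD and DLAT, subunits of the pyruvate dehydrogenase complex, were at -0.77 ± 0.18 and -0.72 ± 0.17. The kinase gene PDK4, induced by fasting in many tissues, was at 5.95, 7.52 and 10.1 in the full and 1.80, 3.85 and 2.80 in the glutamine-only medium. All glutamine-only values were lower, with a change of -1.22 ± 0.41 (adjusted p = 0.0317), and the call was lost with DESeq2 and without glutamine-only A or C or full B or C (adjusted p 0.0659 to 0.143). PCK2, the mitochondrial enzyme that makes phosphoenolpyruvate, was listed at no more than 1.86 in any library and was not tested.

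The tricarboxylic acid cycle list held 1 called gene among 17 tested (median -0.22). That gene was IDH1, the cytosolic NADP-dependent isocitrate dehydrogenase, at 35.7, 33.8 and 43.1 in the full and 99.2, 64.5 and 97.9 in the glutamine-only medium. The 3 glutamine-only values were all higher, though replicate B stood below the other two, and the change was 1.17 ± 0.23 (adjusted p = 0.000333). Without glutamine the same withdrawal of glucose took IDH1 from a mean of 29.5 to 14.9 (-0.98 ± 0.23), so that the changes had opposite signs and differed by 2.15 ± 0.33 (adjusted p = 1.16e-05). The fumarase gene FH gave -0.50 ± 0.22 and did not pass.

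Of 19 genes of glutamine and glutamate metabolism 8 rose, 1 fell and 10 did not pass (median 0.17). SLC1A5, the main glutamine importer, was at 56.9, 56.4 and 40.4 in the full and 165, 167 and 158 in the glutamine-only medium. The groups were well apart, with a change of 1.67 ± 0.13 (adjusted p = 7.57e-11). GPT2, the mitochondrial alanine transaminase, rose by 1.28 ± 0.28 and PYCR1, which makes proline, by 1.23 ± 0.27. GCLC, the catalytic subunit that starts glutathione synthesis, rose by 1.08 ± 0.19. GLUL, the glutamine synthetase, stood at 65.5, 67.7 and 66.0 and 71.3, 61.6 and 67.1, with a change of 0.00 ± 0.14 (adjusted p = 0.992).

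Nucleotide sugar genes were led by the entry enzyme of the hexosamine pathway. GFPT1, which makes glucosamine 6-phosphate from fructose 6-phosphate and glutamine (ENSG00000198380, chromosome 2, 69319780 to 69387227), was at 56.2, 81.8 and 75.2 in the full and 293, 289 and 319 in the glutamine-only medium. All glutamine-only libraries stood above 3 times the highest full one, and the change was 2.08 ± 0.12 (adjusted p = 1.3e-13). Its paralog GFPT2 went the other way, from 71.4, 75.2 and 68.8 to 46.0, 44.3 and 52.2, a fall of 0.59 ± 0.14. The later enzymes PGM3 and UAP1 rose by 0.59 ± 0.15 and 0.53 ± 0.14, and OGT, which attaches O-linked N-acetylglucosamine, by 0.44 ± 0.12. These 3 calls were lost under equal totals, and that of UAP1 also without glutamine-only B (adjusted p 0.0814).

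In all, 9 of 28 nucleotide sugar genes rose and 3 fell (median 0.09). Under equal totals these counts were 6 and 5, and the median turned to -0.02. With these 6 libraries alone and the replicate letter as a block they were 9 and 5. UGDH, which oxidises UDP-glucose, rose by 1.12 ± 0.13 and GMPPB, which makes GDP-mannose, by 0.98 ± 0.25. GMPPB shares 42.3% of its exon bases with another gene on the same strand in GENCODE 29, so its reads are uncertain. PGM1, which links glycogen and glucose 6-phosphate, was at 148, 149 and 132 in the full and 84.8, 84.8 and 81.1 in the glutamine-only medium, all lower, a fall of 0.77 ± 0.15. CMAS, which activates sialic acid, was the other called lower member at -0.76 ± 0.24, a call lost without glutamine-only B or C or full A or C (adjusted p 0.0648 to 0.117).

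Genes that assemble N-glycans on dolichol and transfer them to proteins rose in part: 12 of 34 tested were higher, none lower and 22 did not pass (median 0.34). ALG5, which makes dolichol-linked glucose, was at 17.2, 17.9 and 13.8 and 38.8, 27.9 and 41.9. All 3 glutamine-only values were higher, with a change of 1.10 ± 0.23. DPAGT1, which adds the first sugar, rose by 0.83 ± 0.21, and the oligosaccharyltransferase genes STT3A, STT3B, RPN1, OSTC and MAGT1 rose by 0.63 to 0.95. UGGT1, which puts glucose back on unfolded glycoproteins, rose by 0.77 ± 0.11. DAD1, another transferase subunit, gave -0.06 ± 0.14 and did not pass.

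ER chaperones rose together. Of 32 tested, 22 rose, none fell and 10 did not pass (median 1.02, against 10.8% of all genes higher and a median of -0.0078). HSPA5, the main HSP70 of the ER (ENSG00000044574, chromosome 9, 125234853 to 125241343), was at 239, 261 and 268 in the full and 1266, 1248 and 1309.5 in the glutamine-only medium. The higher group's libraries lay within a few percent of each other and the groups were about 5-fold apart, with a change of 2.31 ± 0.09 (adjusted p = 3.63e-17). HSP90B1, the HSP90 of the ER (ENSG00000166598, chromosome 12, 103930410 to 103947926), was at 724, 670.2 and 755 and 2743, 2767 and 2757. Its change was 1.94 ± 0.10, and its near-identical pseudogenes HSP90B2P and HSP90B3P, with which reads can be shared, were at 1.82 ± 0.27 and 1.85 ± 0.40. CALR, the lectin chaperone calreticulin, rose by 1.35 ± 0.10, and its partner CANX, calnexin, gave 0.41 ± 0.28 (adjusted p = 0.318).

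Smaller chaperones and co-factors showed the widest ratios, from low starting levels. SDF2L1, a partner of HSPA5 complexes, was at 5.29, 4.70 and 4.59 in the full and 41.5, 41.4 and 41.9 in the glutamine-only medium. The 3 glutamine-only libraries were nearly equal and the change was 2.86 ± 0.41. HYOU1, the large HSP70 that releases nucleotide from HSPA5, was at 5.29, 5.64 and 0.917 and 27.1, 39.5 and 26.1, with a change of 2.86 ± 0.45. CRELD2 changed by 2.75 ± 0.48, the secreted MANF by 2.23 ± 0.16 and the co-chaperone DNAJB9 by 2.13 ± 0.15. The calcium-binding CALU (0.08 ± 0.09) and RCN2 (0.16 ± 0.24) did not pass.

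Promoters of these genes are shown because members that moved together hold a known sequence element. The ER stress response element (ERSE), bound by NF-Y and ATF6, was searched on both strands as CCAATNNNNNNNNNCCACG, and its compact form ERSE-II as ATTGGNCCACG. The windows run from 250 bases before to 50 bases after the gene's start, are from RefSeq on GRCh38.p14, and are written 5′ to 3′ on the gene's strand. Capitals mark the fixed bases of the motif, which read in reverse complement where the match is on the other strand. HSPA5 and HSP90B1 are given whole and the others as the stretch around the match. HSPA5, HSP90B1, CRELD2, CALR and ERO1B rose and hold ERSE, HERPUD1, SDF2L1 and HYOU1 rose and hold ERSE-II, and CANX holds ERSE but did not pass.
HSPA5 (chr9:125241294-125241593, minus strand): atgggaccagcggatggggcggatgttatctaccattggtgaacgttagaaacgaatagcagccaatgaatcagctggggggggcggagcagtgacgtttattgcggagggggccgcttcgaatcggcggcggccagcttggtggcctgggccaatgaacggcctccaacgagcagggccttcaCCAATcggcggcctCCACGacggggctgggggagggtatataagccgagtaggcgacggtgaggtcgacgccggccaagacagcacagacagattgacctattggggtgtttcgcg
HSP90B1 (chr12:103930160-103930459, plus strand): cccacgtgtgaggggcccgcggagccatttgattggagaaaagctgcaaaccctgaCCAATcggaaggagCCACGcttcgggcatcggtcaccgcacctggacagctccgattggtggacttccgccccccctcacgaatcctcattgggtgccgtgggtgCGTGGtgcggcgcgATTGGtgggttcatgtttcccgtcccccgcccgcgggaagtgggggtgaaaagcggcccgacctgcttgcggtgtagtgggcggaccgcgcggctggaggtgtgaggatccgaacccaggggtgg
CRELD2 (chr22:49918524-49918602, plus strand): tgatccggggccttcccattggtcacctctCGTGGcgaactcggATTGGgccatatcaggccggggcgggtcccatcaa
CALR (chr19:12938359-12938432, plus strand): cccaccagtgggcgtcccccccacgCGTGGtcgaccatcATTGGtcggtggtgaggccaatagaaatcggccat
ERO1B (chr1:236282153-236282208, minus strand): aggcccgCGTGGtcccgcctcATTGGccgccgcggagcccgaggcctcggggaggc
CANX (chr5:179698748-179698826, plus strand): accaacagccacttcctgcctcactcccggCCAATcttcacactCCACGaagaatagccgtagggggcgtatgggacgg
HERPUD1 (chr16:56931995-56932065, plus strand): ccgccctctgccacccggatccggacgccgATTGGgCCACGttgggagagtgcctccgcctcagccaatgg
SDF2L1 (chr22:21642084-21642154, plus strand): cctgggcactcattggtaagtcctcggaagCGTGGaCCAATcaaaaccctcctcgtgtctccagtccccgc
HYOU1 (chr11:119057244-119057420, minus strand): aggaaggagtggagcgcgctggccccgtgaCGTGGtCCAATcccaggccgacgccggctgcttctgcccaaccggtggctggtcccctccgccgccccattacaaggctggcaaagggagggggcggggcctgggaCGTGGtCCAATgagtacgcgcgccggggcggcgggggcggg

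ERSE was rare: 22 of 27305 promoters held it (0.0806%), and 12 of the 7281 promoters of tested genes (0.165%). Of those 12 genes 9 rose and none fell (median 1.16), beside 10.8% higher and 11.6% lower over all genes tested. Those that rose were ERO1B, CRELD2, HSPA5, HSP90B1 (2 copies), FICD, CALR, SERP1, XBP1 and EIF2A, while TRIM5, CANX and TMEM120A did not pass. SERP1 and EIF2A lie on opposite strands, and their match is the same stretch of bases, counted for both genes. Among ER chaperones with a promoter 5 of 30 held ERSE (16.7%), and none of the 27 degradation, 27 translocation or 29 N-glycan genes did. ERSE-II stood in 15 of all promoters (0.0549%) and in 10 of the tested ones (0.137%), of which 4 rose and 3 fell (median 0.45). A match describes the letters of this window and does not show a bound site or a cause. Other forms of the element were not searched.

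**Figure D3:**
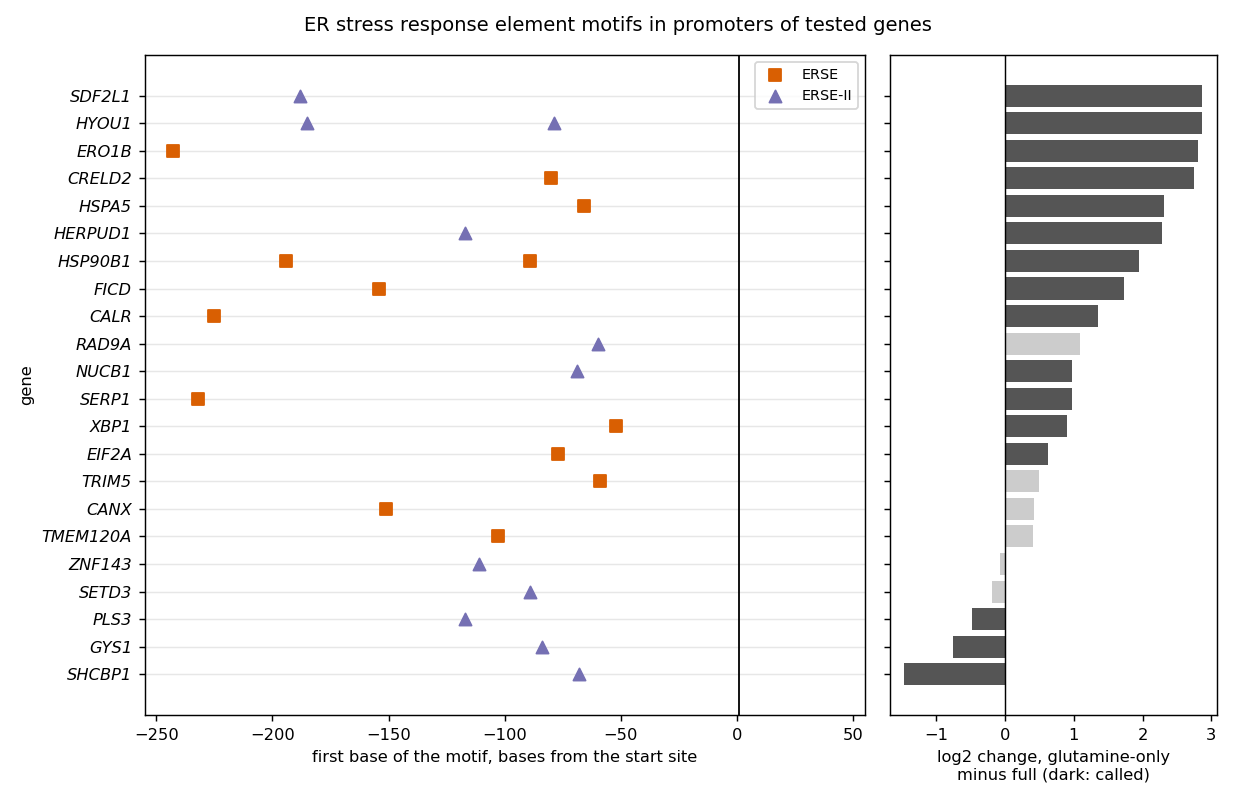
Left, position of the first base of each ERSE (square) or ERSE-II (triangle) match relative to the gene's start, for the tested genes that hold one. Right, log2 change of the same genes, glutamine-only minus full, dark where called. All 9 called genes with ERSE lie right of 0, and PLS3, GYS1 and SHCBP1, with ERSE-II, lie left of it.

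Enzymes of disulfide formation were split between the paralogs of the ER oxidase. Of 21 tested, 9 rose and 4 fell (median 0.34). ERO1B was at 5.29, 6.58 and 15.6 in the full and 70.4, 59.7 and 61.5 in the glutamine-only medium. All glutamine-only values exceeded the highest full one several times over, and the change was 2.81 ± 0.28 (adjusted p = 5.93e-09). ERO1A, also a hypoxia target, went from 227, 235 and 248 to 189, 176 and 191, a change of -0.35 ± 0.10 whose call was lost with DESeq2 and without glutamine-only B or full C (adjusted p 0.067 to 0.0692). The isomerases PDIA4, PDIA3 and PDIA6 rose by 2.04 ± 0.10, 1.70 ± 0.12 and 1.23 ± 0.17, and P4HB, the founding member of the family, by 0.61 ± 0.11. The count that fell depended on single libraries: it was 2, 0, 2, 2 and 1 without glutamine-only A, glutamine-only B, full A, full B and full C.

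Sensors and factors of the unfolded protein response rose in 9 of 17 tested genes, and none fell (median 0.47). ERN1, the gene of IRE1, was at 15.9, 11.3 and 12.8 in the full and 62.2, 63.6 and 58.7 in the glutamine-only medium. Ranges were far apart, with a change of 2.14 ± 0.16 (adjusted p = 1.89e-11). EIF2AK3, the gene of PERK, changed by 1.03 ± 0.27, a call lost without glutamine-only C (adjusted p 0.061), and ATF6 gave 0.31 ± 0.14 (adjusted p = 0.109). XBP1, whose message IRE1 splices, rose by 0.90 ± 0.12, and the splicing itself was not measured here. DDIT3, the stress factor CHOP, was at 4.63, 1.88 and 8.26 and 37.0, 30.8 and 22.4, all higher, with a change of 2.52 ± 0.29. DDIT3 shares 31.6% of its exon bases with genes on the opposite strand, and the strand setting of the counting is not given.

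Genes for the degradation of misfolded ER proteins rose in 13 of 33 tested, with none lower (median 0.14). HERPUD1, which gathers the degradation complex, was at 28.4, 28.2 and 24.8 in the full and 142, 137 and 129 in the glutamine-only medium, a change of 2.28 ± 0.13. SEL1L and SYVN1, the adaptor and the ubiquitin ligase at the membrane, rose by 1.71 ± 0.11 and 1.62 ± 0.21, and the mannosidase-like EDEM1 by 1.41 ± 0.11. VCP, the ATPase that pulls substrates out, gave -0.02 ± 0.10 and UFD1 -0.23 ± 0.23, and neither passed.

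Entry into the ER and export from it followed. Of 30 translocation genes 16 rose and 1 fell (median 0.41), and under equal totals 9 rose and 3 fell (median 0.29). SEC61A1, the channel subunit, rose by 0.85 ± 0.12, the signal peptidase subunit SEC11C by 1.49 ± 0.24 and the channel-associated SSR4 by 1.07 ± 0.13. SRP9, of the signal recognition particle, was the member that fell, at -0.61 ± 0.14. Of 47 genes of ER to Golgi traffic 15 rose and 3 fell (median 0.21), and under equal totals 8 and 3. MIA3, which loads large cargo, rose by 0.82 ± 0.13 and the cargo lectin LMAN2 by 0.75 ± 0.16.

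**Figure D4:**
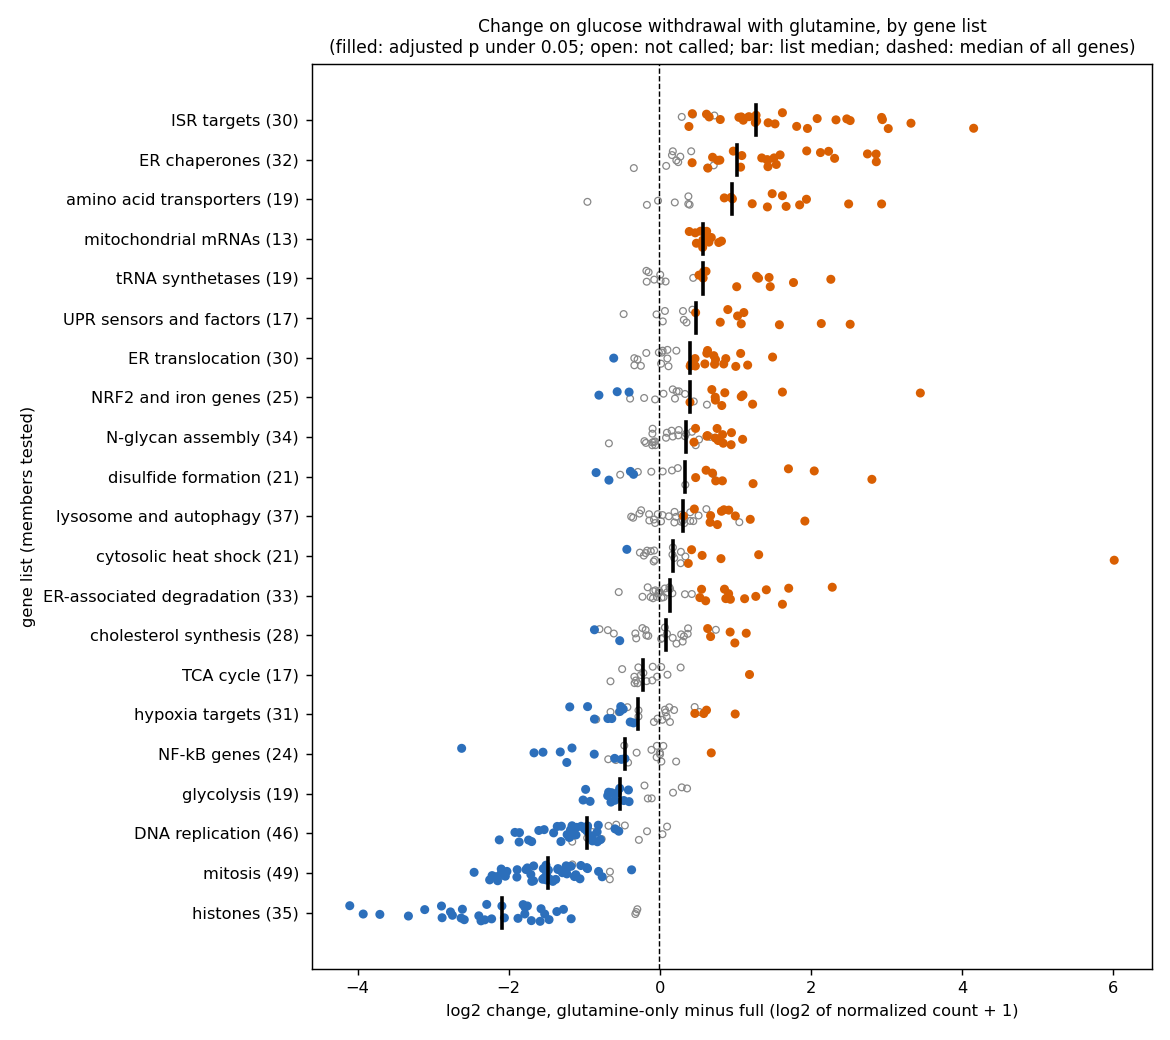
Log2 change, glutamine-only minus full, of the tested members of 21 gene lists, 1 point per gene, filled where called, with a bar at the list's median and a dashed line at the median of all genes tested. The points of the histone, mitosis and DNA replication lists lie almost all left of the line, and those of the integrated stress response (ISR) targets, ER chaperones and mitochondrial messages almost all right of it.

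Targets of ATF4 and the integrated stress response rose in 26 of 30 tested genes, with none lower (median 1.28). TRIB3, a pseudokinase induced by ATF4 and CHOP (ENSG00000101255, chromosome 20, 380760 to 397559), was at 10.6, 17.9 and 11.9 in the full and 147, 143 and 131 in the glutamine-only medium. The groups were about 10-fold apart, and the change was 3.32 ± 0.14 (adjusted p = 1.15e-16). GDF15, a secreted stress signal, was at 1.98, 0.940 and 3.67 and 50.5, 42.4 and 67.1, with a change of 4.15 ± 0.26. Full values of a few reads leave the size of such changes imprecise, here and for HMOX1 and FOSB below. CTH, which makes cysteine from cystathionine, was at 2.64, 6.58 and 5.50 and 37.9, 47.2 and 42.9, a change of 2.95 ± 0.25. The glutathione-degrading CHAC1 rose by 2.33 ± 0.36, CEBPG, a partner of ATF4, by 1.81 ± 0.16 and XPOT, which exports tRNA from the nucleus, by 1.52 ± 0.11. ATF4 itself rose by 0.80 ± 0.11. RBCK1, the chromosomal neighbour of TRIB3 on chromosome 20, was at 36.4, 29.1 and 41.3 and 161, 138 and 160.3, a change of 2.08 ± 0.13.

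ASNS, the asparagine synthetase that is a textbook target of ATF4, missed the filter, with 5.41, 5.78 and 4.66 in the glutamine-only and 2.64, 1.88 and 0.917 in the full medium. ASNS shares 44.6% of its exon bases with another gene on the same strand in GENCODE 29.

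Amino acid importers rose in 12 of 19 tested genes and none fell (median 0.96). SLC3A2, the shared heavy chain of several exchangers (ENSG00000168003, chromosome 11, 62856109 to 62888860), was at 43.0, 36.7 and 47.7 in the full and 345, 319.7 and 324 in the glutamine-only medium. These groups were over 6-fold apart at their nearest, with a change of 2.93 ± 0.11 (adjusted p = 3.54e-18). Its light chains SLC7A11, which imports cystine, and SLC7A5, which imports large neutral amino acids, rose by 1.62 ± 0.11 and 1.49 ± 0.15. SLC1A4 rose by 2.50 ± 0.33, the glycine transporter SLC6A9 by 1.85 ± 0.27 and the glutamine transporters SLC38A1 and SLC38A2 by 1.22 ± 0.09 and 0.85 ± 0.09. SLC38A9, a lysosomal amino acid sensor, gave 0.38 ± 0.28 and the taurine transporter SLC6A6 0.20 ± 0.14, and neither passed.

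Cytosolic tRNA synthetases rose in 11 of 19, with none lower (median 0.57). WARS1, for tryptophan, was at 49.6, 40.4 and 39.4 and 215, 209 and 206, a change of 2.26 ± 0.12, and AARS1, for alanine, changed by 1.77 ± 0.11. SARS1, GARS1, YARS1 and MARS1, for serine, glycine, tyrosine and methionine, rose by 1.02 to 1.45. QARS1, for glutamine, was at 76.7, 73.3 and 81.6 and 79.4, 83.8 and 81.1, with a change of 0.08 ± 0.13. KARS1, RARS1, HARS1, FARSA and FARSB also did not pass, with values from -0.18 to 0.01.

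The core of the amino acid response element, TGATGNAA on either strand, stood in 1003 of 27305 promoters (3.67%) and in 122 of the 7281 tested (1.68%), of which 27 rose and 10 fell (median 0.02). Of all genes tested 10.8% rose and 11.6% fell. The core stood in 6 of 16 tRNA synthetase promoters (37.5%), 3 of 16 transporter promoters (18.8%) and 3 of 25 promoters of ISR targets (12%). The stretches of AARS1 and CHAC1 are shown because both genes rose and carry the element, in capitals, in reverse complement.
AARS1 (chr16:70289656-70289723, minus strand): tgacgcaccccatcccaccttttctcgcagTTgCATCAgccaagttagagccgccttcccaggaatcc
CHAC1 (chr15:40953232-40953299, plus strand): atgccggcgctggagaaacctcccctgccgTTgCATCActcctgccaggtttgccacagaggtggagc

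Serine synthesis and one-carbon genes were higher at specific steps: 4 of 13 rose, none fell and 9 did not pass (median 0.42). PSAT1, the transaminase that uses glutamate to make phosphoserine (ENSG00000135069, chromosome 9, 78297125 to 78330093), was at 29.8, 28.2 and 36.7 in the full and 187, 161 and 190.1 in the glutamine-only medium. All 3 glutamine-only values were more than 4 times the highest full value, and the change was 2.47 ± 0.14 (adjusted p = 1.3e-13). SHMT2 and MTHFD2, which pass serine carbon to folate in mitochondria, rose by 1.47 ± 0.12 and 1.26 ± 0.20. As with DDIT3, part of the exon bases of MTHFD2 (33.2%) lies opposite other genes, and this holds also for WIPI1 (28.1%), PDIA6 (25.2%), SLC1A5 (23.8%) and DPAGT1 (21.3%). PHGDH, the first enzyme of the pathway, was low and scattered, at 3.31, 3.76 and 0.917 and 2.71, 9.63 and 10.3, with a change of 1.17 ± 0.52 (adjusted p = 0.109) that passed only without glutamine-only replicate A, the lowest of its group. AHCY, of the methionine cycle, gave -0.18 ± 0.19 and did not pass.

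Most genes of cell division fell. Of 49 mitosis genes tested, 46 fell and none rose (median -1.47, against 11.6% of all genes lower). Of 46 DNA replication genes 33 fell and none rose (median -0.96), and of 35 histone and histone-processing genes 32 fell and none rose (median -2.09). MKI67, the common proliferation marker (ENSG00000148773, chromosome 10, 128096659 to 128126423), was at 546, 525 and 527 in the full and 125, 122 and 138 in the glutamine-only medium. The groups were about 4-fold apart, with a change of -2.04 ± 0.12 (adjusted p = 1.16e-13). CCNA2, the cyclin of S and G2 phase, was at 51.6, 59.2 and 59.6 and 8.12, 12.5 and 8.39, a change of -2.46 ± 0.27.

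Mitotic kinases and motors were among the members that fell. CDK1 fell by 1.67 ± 0.16, AURKA changed by -2.02 ± 0.28, PLK1 by -1.71 ± 0.34 and the kinesin KIF20A by -2.25 ± 0.27. The DNA topoisomerase TOP2A went from 575, 540.5 and 605 to 152, 164 and 147, a change of -1.89 ± 0.10. The kinetochore gene SPC24 (-0.66 ± 0.42) and PRC1, of the spindle midzone (-0.66 ± 0.47), did not pass.

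Among replication genes the ribonucleotide reductase subunit RRM2 was at 104, 109 and 105 in the full and 23.5, 24.1 and 23.3 in the glutamine-only medium, tight and widely separated groups, with a change of -2.12 ± 0.20. PCNA, the sliding clamp, changed by -1.41 ± 0.18, thymidine kinase TK1 by -1.70 ± 0.22 and the helicase subunit MCM6 by -1.60 ± 0.29. The licensing factor CDT1 gave 0.03 ± 0.33 and the clamp loader subunit RFC1 0.10 ± 0.15, and neither passed. H3C3, a replication-dependent histone gene (ENSG00000287080, chromosome 6, 26045384 to 26045869), was at 854, 1049.9 and 908 and 148, 164 and 144, a change of -2.61 ± 0.11 (adjusted p = 7.52e-17). Histone genes are near-identical copies, so reads may be split between them. SLBP, which binds the end of histone messages, and NPAT, a coactivator of histone genes, were at -0.31 ± 0.16 and -0.30 ± 0.13 and did not pass.

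The cell cycle genes homology region, bound by the DREAM and MuvB complexes, was searched as TTTGAA on both strands. It stood in 4212 of 27305 promoters (15.4%), in 720 of the 7281 tested (9.89%) and in 29 of 41 mitosis promoters (70.7%), but in 2 of 39 DNA replication promoters (5.13%). Of the 720 tested genes that hold it 63 rose and 155 fell, beside 10.8% higher and 11.6% lower over all genes tested. Such a short word is frequent by itself. The stretches of MKI67, PLK1, BUB1B and TOP2A are shown because all of these fell and hold the word, in capitals, in MKI67 and TOP2A at 2 places.
MKI67 (chr10:128126417-128126500, minus strand): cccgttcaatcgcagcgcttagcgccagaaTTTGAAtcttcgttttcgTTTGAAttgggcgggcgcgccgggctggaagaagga
PLK1 (chr16:23678830-23678895, plus strand): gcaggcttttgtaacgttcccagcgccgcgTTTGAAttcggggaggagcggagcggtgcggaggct
BUB1B (chr15:40161016-40161081, plus strand): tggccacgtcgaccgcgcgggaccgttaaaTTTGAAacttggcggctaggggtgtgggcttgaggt
TOP2A (chr17:40418012-40418120, minus strand): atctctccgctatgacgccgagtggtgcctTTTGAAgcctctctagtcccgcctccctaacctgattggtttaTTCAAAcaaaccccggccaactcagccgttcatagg

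Arrest genes and G1 cyclins went in both directions, with 8 of 26 higher and 7 lower (median 0.05, and -0.06 under equal totals). CDKN1A, the inhibitor p21, was at 94.6, 102 and 97.2 in the full and 61.3, 74.2 and 83.9 in the glutamine-only medium, lower in all 3, with a change of -0.43 ± 0.13 (adjusted p = 0.0151) that was lost with DESeq2 and without glutamine-only A or full B (adjusted p 0.0589 to 0.12). CDKN2C and CDKN2D, inhibitors of CDK4 and CDK6, fell by 1.99 ± 0.36 and were at -1.56 ± 0.38. MYC was at 42.3, 49.8 and 39.4 and 71.3, 71.3 and 76.4, all higher, with a change of 0.73 ± 0.12 (adjusted p = 3.8e-05). The stress-induced GADD45B rose by 1.16 ± 0.20 and the cyclin CCND2 by 1.19 ± 0.15, while CCND1 was at -0.36 ± 0.09. ID1, an inhibitor of differentiation factors, was at 114, 139 and 126 and 11.7, 11.6 and 14.9, a change of -3.22 ± 0.20.

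Sterol and fatty acid synthesis genes were called in both directions, beside 10.8% higher and 11.6% lower over all genes tested. Of 28 cholesterol genes 5 rose and 2 fell (median 0.08, and -0.04 under equal totals), and of 23 fatty acid synthesis genes 5 rose and 2 fell (median 0.05, and -0.07 under equal totals). In a fit on these 6 libraries alone with the replicate letter as a block, 9 cholesterol genes rose and 3 fell, and 7 fatty acid genes rose and 4 fell. INSIG1, which holds back the sterol sensor, was at 212, 236 and 233 in the full and 277, 269.7 and 293 in the glutamine-only medium. All glutamine-only values were higher, yet the change of 0.30 ± 0.16 did not pass (adjusted p = 0.185), while it passed with that block (0.30, adjusted p = 0.00698). HMGCS1, an early enzyme of the pathway, gave -0.23 ± 0.19 and did not pass.

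SCD, which makes monounsaturated fatty acids, was at 697, 683 and 642 in the full and 948, 1031 and 991 in the glutamine-only medium, higher in all 3, with a change of 0.55 ± 0.10 (adjusted p = 0.000132). FASN, the fatty acid synthase, changed by 0.54 ± 0.10 and the lipid regulator SREBF1 by 0.68 ± 0.18. GPAM, which starts triglyceride synthesis, was called in the other direction at -1.07 ± 0.34, a call lost with DESeq2 and without glutamine-only C or full B or C (adjusted p 0.0618 to 0.124). ABCA1, which exports cholesterol, rose by 1.14 ± 0.26 and the lysosomal cholesterol carrier NPC2 by 0.93 ± 0.16.

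The same lipid genes stood far apart between the single-nutrient media. Against the glucose-only medium 18 of 28 cholesterol genes were higher with glutamine alone and none was lower (median 1.34), and 13 of 23 fatty acid genes were higher and 1 lower (median 0.77). INSIG1 had a mean of 19.1 with glucose alone, a difference of 3.84 ± 0.16 from the glutamine-only medium, the highest under the naming rule. STARD4, a sterol carrier, differed by 3.34 ± 0.18, SCD by 2.93 ± 0.10 and MSMO1, a sterol oxidase, by 2.68 ± 0.22. TXNIP was the lowest under the same rule at -4.19 ± 0.17, followed by the mitochondrial tRNA gene MT-TR at -1.33 ± 0.19.

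Fatty acid oxidation genes did not move as a list. Of 22 tested, none rose and 2 fell (median -0.0041). ACAA2, a mitochondrial thiolase, was at 27.1, 27.3 and 30.3 in the full and 6.31, 9.63 and 9.32 in the glutamine-only medium, lower in all 3, with a change of -1.65 ± 0.40 (adjusted p = 0.00262). CPT1A, which controls entry of fatty acids into mitochondria, gave -0.41 ± 0.21 and did not pass.

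Hypoxia targets were split: 10 of 31 fell and 4 rose (median -0.28), with 11 and 2 under equal totals, 6 and 4 without full replicate C, and 6 and 3 with DESeq2. AK4, a mitochondrial adenylate kinase, was at 81.3, 79.0 and 86.2 in the full and 32.5, 31.8 and 42.9 in the glutamine-only medium, a change of -1.19 ± 0.22. BNIP3, a mitophagy receptor, changed by -0.69 ± 0.12 and the mitochondrial FAM162A by -0.96 ± 0.23. VEGFA, the vascular growth factor and also an ATF4 target, went the other way, from 234, 261 and 236 to 373, 379 and 370.0, a change of 0.62 ± 0.10. ADM, adrenomedullin, rose by 1.00 ± 0.19, and NDRG1, a common marker of hypoxia, gave 0.09 ± 0.12 (adjusted p = 0.652).

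Messages encoded in the mitochondrial genome were higher. All 13 mitochondrial messages rose (median 0.58), led by MT-CO1, a subunit of cytochrome oxidase, at 2720.1, 2865 and 2825 in the full and 4613, 5180.4 and 5026 in the glutamine-only medium. Its change was 0.82 ± 0.12 and that of MT-ND1, of complex I, 0.78 ± 0.11. Mitochondrial ribosomal RNA moved with them, taking 13.6 to 14.2% of reads in the glutamine-only and 8.74 to 10.6% in the full libraries, and its part in the result was not tested. Of 44 nuclear respiratory chain genes 11 fell and none rose (median -0.23), 5 to 7 with DESeq2 and without glutamine-only replicate A, full replicate B or full replicate C. ATP5F1B, a core subunit of ATP synthase, was at -0.37 ± 0.09 and NDUFA4, of cytochrome oxidase, at -0.54 ± 0.13.

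In the cytosolic heat shock list 6 of 21 rose, 1 fell and 14 did not pass (median 0.17). HSPA6, a strictly stress-inducible HSP70, was at 0, 0 and 1.83 in the full and 95.6, 79.0 and 97.9 in the glutamine-only medium. It was called (adjusted p = 7.06e-14), and no fold is given against a group that is at or near 0. DNAJB1, a co-chaperone of HSP70, was at 72.7, 70.5 and 66.0 and 161, 175 and 186, all higher, a change of 1.31 ± 0.11. HSPH1 rose by 0.56 ± 0.12 and HSPA8 by 0.42 ± 0.10 (lost under equal totals, where 3 of the list rose), while HSP90AA1, at 855, 919 and 921 and 780.3, 845 and 775, gave -0.17 ± 0.10 (adjusted p = 0.252). CCT2, a chaperonin subunit, was the called lower member at -0.44 ± 0.11.

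Of 25 oxidative stress and iron genes 11 rose and 3 fell (median 0.40). HMOX1, haem oxygenase, was at 2.64, 0.940 and 3.67 in the full and 37.9, 33.7 and 30.8 in the glutamine-only medium, a change of 3.45 ± 0.44. FTL, the ferritin light chain, was at 650.0, 744 and 787 and 1564, 1723 and 1820.3, a change of 1.23 ± 0.11. FTH1, the heavy chain, rose by 1.10 ± 0.15, and 62.4% of its exon bases lie opposite another gene. The thioredoxin reductase TXNRD1 rose by 0.82 ± 0.09 and NQO1 by 0.73 ± 0.15, whereas the superoxide dismutase SOD2 was at -0.56 ± 0.13 and the transferrin receptor TFRC at -0.41 ± 0.10.

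Inflammatory and interferon genes were lower in part. Of 24 NF-kB genes 10 fell and 1 rose (median -0.47). The chemokine CXCL1 was at 89.9, 91.2 and 99.1 in the full and 16.2, 21.2 and 8.39 in the glutamine-only medium, all lower, with a change of -2.62 ± 0.25. CXCL8 changed by -1.23 ± 0.17 and the inhibitor of apoptosis BIRC3 by -1.32 ± 0.13. Of 21 interferon genes 8 fell and 3 rose (median -0.62), with IFIT1 at -2.61 ± 0.52 and ISG15 at -1.35 ± 0.27 against the transcription factor STAT2 at 1.14 ± 0.14.

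Immediate early genes were mixed, with 12 of 31 higher and 7 lower (median 0.26). EGR1 was at 21.2, 21.6 and 17.4 in the full and 107, 85.7 and 106 in the glutamine-only medium, a change of 2.26 ± 0.15, and FOSB at 2.64, 0.940 and 2.75 and 26.2, 23.1 and 21.4, a change of 3.04 ± 0.39. FOS rose by 1.49 ± 0.27, while JUN was at -0.50 ± 0.14 and FOSL2 at -1.30 ± 0.16. The call of JUN was lost with DESeq2 and without glutamine-only C or full B (adjusted p 0.0622 to 0.104). Of 10 EGFR ligand and receptor genes 2 rose and 2 fell (median -0.09).

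Of 46 matrix and adhesion genes 13 fell and 6 rose (median -0.12), and 16 fell and 10 rose in the fit on these 6 libraries with the replicate block. FN1, fibronectin, was at 1204, 1083 and 1118 in the full and 714, 619 and 669 in the glutamine-only medium, a change of -0.77 ± 0.09. TGFBI changed by -1.31 ± 0.30 and the protease inhibitor SERPINE2 by 1.86 ± 0.15. The collagenase MMP1 was at 31.1, 43.2 and 34.9 and 92.9, 99.2 and 83.0, all higher, a change of 1.32 ± 0.12.

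Lists of growth and turnover were called mostly in the higher direction. Of 36 translation factors 15 rose and 1 fell (median 0.10), but 6 and 1 under equal totals, where the median was -0.01. The elongation factors EEF2 and EEF1A1 rose by 0.79 ± 0.10 and 0.59 ± 0.10, and EIF4G2 was the lower one at -0.49 ± 0.09. Of 31 ribosome biogenesis genes 7 rose and none fell (median 0.15), with 2 to 4 under equal totals, with DESeq2 and in 4 of the 6 fits without 1 library (glutamine-only B and full A, B and C). Of 37 lysosome and autophagy genes 11 rose and none fell (median 0.31), with WIPI1, of the forming autophagosome, at 1.92 ± 0.36, and the nutrient-signalling genes FLCN and RRAGC at 1.20 ± 0.19 and 0.82 ± 0.21.

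Of 27 pentose phosphate and nucleotide genes 4 rose and 3 fell (median -0.11), and 2 rose and 3 or 4 fell under equal totals, with DESeq2 and without full replicate A or C. The uridine phosphorylase UPP1 rose by 1.24 ± 0.22 and transketolase, TKT, by 0.80 ± 0.10, against PRPS2, which makes the ribose donor of nucleotides, at -1.20 ± 0.28. Of 23 genes of mTOR and AMPK signalling 4 rose and 4 fell (median -0.13), with 2 and 5 under equal totals and 2 and 4 with DESeq2 or without full replicate A. EIF4EBP1, a brake on translation and an ATF4 target, rose by 1.05 ± 0.24, and the AMPK subunit PRKAA2 was at -0.96 ± 0.24. Of 24 apoptosis genes 2 rose and 4 fell (median -0.04), and 4 rose and 4 fell with edgeR. APAF1, which assembles the apoptosome, was at -1.15 ± 0.24. Over all genes tested 10.8% rose and 11.6% fell. None of 6 metallothionein genes and regulators passed (median 0.14), and none of them had an unadjusted p under 0.05 in the limma test.

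Glucose withdrawal in the absence of glutamine, deficient against glucose-only, served as the counterpart with no library in common. It called 4008 genes (43.2%), 2149 higher (23.2%) and 1859 lower (20.1%), but 1404 higher and 2437 lower under equal totals, where the median of all genes moved from 0.0018 to -0.17. Of these, 939 were also called in the same direction with glutamine, 45.1% of the 2083 and 23.4% of the 4008, with 482 higher and 457 lower in both. A further 289 were called in opposite directions, 130 of them higher with glutamine and lower without, and 159 the reverse. The difference of the changes, the interaction of glucose and glutamine, was called in 2458 genes (26.5%), 1020 higher (11%) and 1438 lower (15.5%) with glutamine than without. Of the 2083 genes called with glutamine 906 had a called interaction (43.5%). In 771 of these the interaction had the sign of the change with glutamine. These include genes whose change without glutamine was opposite and larger, such as CDKN1A (-0.43 with and 1.59 without).

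Most ISR targets changed differently with and without glutamine. Without glutamine 8 of the 30 ISR targets rose and 9 fell (median 0.04, and -0.13 under equal totals), and the interaction was called in 22, 21 higher and 1 lower (median 1.53). Many were already high with glucose alone. Against the full medium 21 of the 30 were higher there and none lower (median 1.19), beside 9.44% and 13.5% of all genes tested. Between glutamine-only and glucose-only 6 were higher with glutamine alone and none lower (median 0.22), beside 8.26% and 5.05%. TRIB3 had means of 146 with glucose alone and 213 with neither, so that its change without glutamine was 0.54 ± 0.14 from a level already near that of the glutamine-only medium. PSAT1 fell without glutamine, from 195 to 68.4 (-1.51 ± 0.14), and the 2 changes differed by 3.99 ± 0.21 (adjusted p = 1.43e-14). SLC7A11 and SLC1A5 likewise changed by -0.31 ± 0.11 and -0.36 ± 0.13 without glutamine. Of the ER chaperones 17 of 32 rose and 2 fell without glutamine (median 0.59), beside 23.2% and 20.1% of all genes tested. The interaction was called in 6 higher and 3 lower, beside 11% and 15.5% of all genes tested. HSPA5 changed by 2.37 ± 0.09 and HSP90B1 by 2.06 ± 0.10 without glutamine, and their differences of -0.06 ± 0.13 and -0.12 ± 0.14 did not pass. SEL1L and EDEM1, of ER degradation, did differ, by 1.17 ± 0.16 and 1.07 ± 0.16.

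The heat shock genes were called mostly in the setting without glutamine. Without glutamine 20 of 21 rose and none fell (median 2.22), and 20 of the 21 interactions were called lower with glutamine. DNAJB1 went from 55.7 to 3487 without glutamine, so that the 2 changes differed by -4.64 ± 0.15 (adjusted p = 1.69e-19). HSP90AA1 changed by 3.22 ± 0.10 there, against -0.17 ± 0.10 with glutamine. In glycolysis 6 of 19 genes rose and 3 fell without glutamine (4 and 4 under equal totals, with a median of -0.12 in place of 0.06), 10 interactions were called, all lower, and HK2 rose by 2.08 ± 0.17 there. Mitosis genes fell in both settings, 34 of 49 without glutamine (median -1.0), with 2 interactions called higher and 17 lower. Histone genes fell in 33 of 35 without glutamine, with 16 interactions called lower and none higher.

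Directly between the 2 media without glucose, glutamine-only against deficient, 3844 genes (41.5%) were called, 1844 higher (19.9%) and 2000 lower (21.6%) in the glutamine-only medium. Under equal totals these were 2826 higher and 940 lower, and the median of all genes moved from -0.015 to 0.26. Of the heat shock genes 20 of 21 were lower with glutamine (median -1.84), and of mitosis genes 27 of 49 were higher and 1 lower (median 0.56). Of cholesterol genes 19 of 28 were higher and 2 lower (median 1.18). ISR targets were 10 higher and 4 lower of 30 (median 0.08) and ER chaperones 14 higher and 3 lower of 32 (median 0.42). Under equal totals the ISR targets were 11 higher and 3 lower (median 0.36), the chaperones 16 and 2, the mitosis genes 32 and 0, and 18 heat shock genes were lower.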

How the data were processed

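Total RNA was made into 12 stranded libraries after removal of ribosomal RNA, per the labels' protocols. The authors deposited 1 table of normalized counts, a signal per gene and library. The submitters' processing notes name FastQC, HISAT2, Subread, DESeq2 and the build GRCh38.p14, without versions. The annotation release and the strand setting of the counting are not given in the sources used here. Every value was a whole number of reads divided by a size factor, and these reads were recovered for all values (tolerance 0.01 reads). Depth thus limits low genes: 1 read equals 0.661 to 1.302 normalized counts.

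Genes with a value of 10 in 3 libraries were tested with limma-trend 3.58.1 (R 4.3.3) on log2(value + 1), all 12 libraries in the fit, 1 mean per medium, Benjamini-Hochberg adjusted p under 0.05. A fold on this scale understates changes of low genes. In data simulated for glutamine-only against full (8920 genes), 67 genes were changed by 1.5-fold, 64 by 2-fold and 65 by 4-fold. Of these, 29.9%, 65.6% and 98.5% were called, and 0 unchanged genes. The simulated counts were drawn independently for each gene and library, with a spread set by a trend over genes. Deviations shared by the genes of a library were not simulated. Fewer genes were also changed there than were called in the data, so the rates, 0 false calls included, may differ in the data. All 12 libraries carry the same batch label. Deviations from the group mean correlated between equal letters of these 2 media at 0.279, 0.150 and 0.540, but glutamine-only A with full B gave 0.306. Equal letters of glucose-only and full gave -0.0698, -0.169 and -0.364. The data thus do not settle whether the letters pair the samples.

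The gene lists, the members and the rules were chosen with earlier results of these data known. Genes were named by rule: the 10 highest and 10 lowest changes without overlap and with a mean of 100, up to 5 called members per list with the largest change, members called against their list, extremes of the other contrasts, and anchor genes. Other list members, the pseudogenes and genes named for a promoter match were chosen after their values were seen. Alternatives were pseudocounts 0.5 and 8, no filter, a mean of 100, equal totals, the replicate block, only the groups compared, edgeR 4.0.16 quasi-likelihood and DESeq2 1.42.0 on the recovered reads, and leaving out each library. Added after the data were seen were a block on the 6 libraries alone and scaling on protein-coding genes. Some list members are counted but not reported here by name.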

Additional observations from a re-analysis of the deposited data

Results flagged for a closer look

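Of 52 genes named by the rule for the strongest changes, the extremes of the other contrasts or as anchors, 41 differed between glucose withdrawal with and without glutamine by limma's interaction test, 15 with a higher and 26 with a lower change in the presence of glutamine. Over all genes tested the interaction was called in 26.5%, 11% higher and 15.5% lower. The 5 highest and 5 lowest interaction values were picked among called genes. Their calls were thus fixed by the rule, and the count of 41 is not a result about the named genes. Values are the log2 change with glutamine minus that without it.

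The difference was 3.99 for PSAT1, which rose with glutamine and fell without it, as did RBCK1 (2.92) and PABPC1L (2.92). TRIB3 differed by 2.79, GDF15 by 2.58, GFPT1 by 2.40, WARS1 by 2.05 and SLC3A2 by 1.93. The unfolded protein genes HERPUD1 and ATF4 differed by 0.71 and 0.70, VEGFA by 1.07 and the desaturase SCD by 0.62. The mitochondrial tRNA genes MT-TR, MT-TD and MT-TG differed by 1.16, 0.92 and 0.89.

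Heat shock genes were at -4.64 for DNAJB1, -3.50 for HSPH1 and -3.38 for HSP90AA1, and the immediate early gene FOS and the stress enzyme HMOX1 at -3.89 and -3.29. Among cell cycle genes the difference was -3.31 for CKS2, a subunit of cyclin-dependent kinases, -2.60 for ID1, -2.02 for CDKN1A, -1.14 for MYC, -0.99 for ATAD2 and -0.51 for MKI67. Histone genes gave -2.48 (H3C12), -1.82 (H2AC4), -1.46 (H3C2), -1.34 (H3C10), -1.26 (H2AC12), -0.91 (H3C3) and -0.78 (H2BC11). In glucose metabolism it was -2.28 for HK2, -2.04 for SLC2A3, -1.30 for PGK1 and -0.69 for SLC2A1, and it was -1.67 for the glutamine synthetase GLUL. The sterol genes HMGCS1 and INSIG1 gave -1.25 and -1.10, and the stress factor XBP1 gave -0.53.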

How the results depend on the processing

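Against 2083 genes in the comparison of the glutamine-only with the full medium, the alternatives called 1400 (DESeq2) to 2635 (the replicate block on the 6 libraries alone), of which 1389 and 2070 were among the 2083, apart from 624 of fewer genes tested at a mean of 100. With that minimum the counts were 776 for deficient against glucose-only, 632 for the interaction, 486 for glutamine-only against glucose-only, 777 for glutamine-only against deficient, 83 of the named genes (246 without it) and 195 of the list members (493 without it). DESeq2 called 1495 interactions and 604 genes between glutamine-only and glucose-only. Without 1 library the ranges were 1637 to 1728, 3488 to 3633, 2143 to 2443, 849 to 1025 and 3236 to 3431 for these comparisons, the main one first, 218 to 223 named genes and 429 to 443 list members. With the replicate block 2135 genes were called, and on the 6 libraries alone MSMO1 (adjusted p = 0.0241), INSIG1 (0.00698) and MT-TD (0.00913) gained a call. SEC61A2 (0.0544) and NDUFA2 (0.0519) lost theirs under the block, and no other call of the 256 genes named by rule changed with it. Under equal totals 1989 genes were called, 17 of the 256 lost their call, and the share of called interactions higher with glutamine went from 41.5% to 48.4%. The share called higher went from 48.2% to 31.6% in the main comparison, from 53.6% to 36.6% for deficient against glucose-only, from 62.1% to 78.7% for glutamine-only against glucose-only and from 48.0% to 75.0% against deficient. In the comparison of the glutamine-only with the full medium, none of the 1053 named or listed genes took the opposite sign beside a call under any alternative. Only part of them were tested at a mean of 100, and signs in the other comparisons were not checked. The causes of these shifts were not tested. In the simulation 20 of the 67 genes changed by 1.5-fold were called (29.9%).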

Other observations

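Outside the lists, the extremes of the contrasts held a few further genes. PABPC1L, a relative of the cytoplasmic poly(A)-binding protein, was at 31.7, 19.7 and 24.8 in the full and 90.2, 74.2 and 88.5 in the glutamine-only medium, a log2 change of 1.71 ± 0.17, while without glutamine it changed by -1.21 ± 0.17. CKS2, which binds cyclin-dependent kinases, was at 61.5, 74.3 and 76.1 and 39.7, 44.3 and 49.4, a change of -0.66 ± 0.14, and at 181, 197 and 179 in the deficient medium, where its change was 2.66 ± 0.14. ATAD2, a chromatin ATPase, was at 138, 146 and 159 and 41.5, 57.8 and 42.9, all lower, with a change of -1.63 ± 0.14. The mitochondrial tRNA gene MT-TR was at 4128, 3901 and 2496 in the full, 4735, 3301 and 2869.8 in the glutamine-only and 8357, 8549 and 10046 in the glucose-only medium.

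The E-box CACGTG, a palindrome that MYC and the Mondo factors can bind, stood in 2030 of 27305 promoters (7.43%) and in 787 of the 7281 of tested genes (10.8%), of which 118 rose and 88 fell. Of all genes tested 10.8% rose and 11.6% fell, so these counts are not read as a result about genes with an E-box. The E-box stood in 38 of 238 promoters of genes at least 2-fold higher (16%) and in 22 of 276 of those at least 2-fold lower (7.97%).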
